A study of Rattus norvegicus with 21 samples.

Results

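The 9 genes described here are 8 enzymes of cholesterol synthesis, Hmgcs1, Mvd, Idi1, Fdps, Fdft1, Sqle, Cyp51 and Dhcr7, and the sterol sensor Insig1. They were picked out by symbol, from a list drawn up with earlier results of these data known, and stand among 16245 gene symbols in a table of 21 single rat neurons. Of the 9 symbols, 8 have a row of their own. Fdps has only a row shared with Rusc1, a gene for an adaptor protein, in which the reads of the pair cannot be told apart.

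Cells build cholesterol from acetyl-CoA through mevalonate, isoprenoid units and squalene, which is closed into lanosterol and then trimmed to cholesterol. The transcription factor SREBP-2 switches on the genes of nearly all of these steps when sterols in the endoplasmic reticulum are scarce, and Insig1, itself a target of SREBP-2, holds the SREBP escort protein Scap in the endoplasmic reticulum when sterols are plentiful. Blood lipoproteins do not enter the brain freely, so brain cells make their own cholesterol, and astrocytes pass some of it to neurons on particles that carry apolipoprotein E.

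All neurons came from hippocampi of Wistar rats at embryonic day 18, carried a transgene that labels cells with the vesicular GABA transporter (VGAT) by the fluorescent protein Venus, and were taken by patch pipette after recording, at 17 days in vitro. Of these, 5 were GABAergic neurons of purified cultures that received oligodendrocyte conditioned medium (OCM) from day 3 in vitro, and 5 were GABAergic neurons of purified cultures without it. Another 5 were pyramidal neurons and 6 were GABAergic neurons of cultures that kept their glia. Purified cultures had received the antimitotic agents FdU and U at 5 µM, added 24 h after dissection and removed after 36 h. The antimitotic treatment and the lack of glia therefore cannot be told apart in any comparison of purified with glial cultures. Since no animal or culture is named for any cell, a group counts as a single sample: no test was made, and each SD or range describes the spread between cells, which are numbered within their group. The OCM was collected from oligodendrocyte cultures of Wistar rat cortex.

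The cells had 1817671 to 25160911 reads, and 3 reads correspond to 0.909 to 17.7 normalized units. After thinning to the smallest total, 3756 to 5685 genes were detected in OCM-treated cells, 2531 to 3787 in purified cells, 2451 to 5003 in pyramidal neurons and 3613 to 8216 in GABAergic neurons with glia. Gad2 and Slc32a1, which make and package GABA, were above 0 in all 16 GABAergic cells, and Gad1 in all but purified cell 4. The glutamate transporter gene Slc17a7 was at 0 in all 16. In the pyramidal neurons Gad1 and Slc32a1 were at 0, and Gad2 was read in cells 1 and 2, at 924 and 714 normalized units. Pyramidal cells 3 and 4 also held oligodendrocyte lineage markers, at summed levels of 322190.1 and 103569.7 units. Lower sums of these markers were read in pyramidal cell 2 (1604) and in GABAergic cells 1, 3 and 5 with glia (487, 1352 and 998). Purified cells had 0 to 857 and OCM-treated cells 0 to 9.16. The markers of the cell labelled pyramidal cell 3 go against its label: Slc17a7, Slc17a6 and Neurod6 were at 0, and its summed levels were 46.9 for 4 glutamatergic markers, 3591 for pan-neuronal, 64524 for astrocyte and 23414 for microglia markers. Titles open with the letters S, P or ech, which no label explains. All 5 OCM-treated cells and 4 of 5 purified cells are titled S, against 1 of 6 GABAergic neurons with glia, so letter and culture are largely confounded.

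The stretches before the start sites of these genes are shown because SREBP-2 acts there together with NF-Y, which reads CCAAT, and with Sp1, which reads GGGCGG. Of the 9 genes, 7 have an entry among the RefSeq promoters of build GRCr8. Fdft1 and Sqle have none. Printed 5′ to 3′ on the strand of the gene are the 250 bases before the start of 3 genes that were higher in both purified groups (Mvd, Idi1 and Cyp51) and of 2 that were not (Hmgcs1 and Insig1). Capitals mark CCAAT and GGGCGG on either strand, so also ATTGG and CCGCCC. They lie at chr19:67414975-67415224 on the minus strand (Mvd), chr17:66547525-66547774 on the minus strand (Idi1), chr4:30991443-30991692 on the plus strand (Cyp51), chr2:53382054-53382303 on the plus strand (Hmgcs1) and chr4:8057770-8058019 on the minus strand (Insig1).
Mvd: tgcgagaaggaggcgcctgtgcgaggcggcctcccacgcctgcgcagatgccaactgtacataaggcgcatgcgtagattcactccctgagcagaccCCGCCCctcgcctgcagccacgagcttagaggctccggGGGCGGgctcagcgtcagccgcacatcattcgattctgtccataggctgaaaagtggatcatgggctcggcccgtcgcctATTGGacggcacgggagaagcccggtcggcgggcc
Idi1: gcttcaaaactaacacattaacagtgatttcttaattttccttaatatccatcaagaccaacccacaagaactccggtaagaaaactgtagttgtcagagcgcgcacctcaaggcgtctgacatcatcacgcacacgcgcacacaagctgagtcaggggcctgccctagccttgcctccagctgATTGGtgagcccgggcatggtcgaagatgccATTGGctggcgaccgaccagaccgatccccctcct
Cyp51: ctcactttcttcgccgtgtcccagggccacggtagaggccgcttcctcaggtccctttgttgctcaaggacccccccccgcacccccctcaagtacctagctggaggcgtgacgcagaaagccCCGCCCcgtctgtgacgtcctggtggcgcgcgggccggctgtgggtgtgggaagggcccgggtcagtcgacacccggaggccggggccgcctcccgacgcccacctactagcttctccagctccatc
Hmgcs1: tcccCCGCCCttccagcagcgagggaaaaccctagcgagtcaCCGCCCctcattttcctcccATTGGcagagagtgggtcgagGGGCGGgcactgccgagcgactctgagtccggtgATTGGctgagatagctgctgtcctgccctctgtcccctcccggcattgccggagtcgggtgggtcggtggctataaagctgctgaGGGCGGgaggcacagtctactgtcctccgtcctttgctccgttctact
Insig1: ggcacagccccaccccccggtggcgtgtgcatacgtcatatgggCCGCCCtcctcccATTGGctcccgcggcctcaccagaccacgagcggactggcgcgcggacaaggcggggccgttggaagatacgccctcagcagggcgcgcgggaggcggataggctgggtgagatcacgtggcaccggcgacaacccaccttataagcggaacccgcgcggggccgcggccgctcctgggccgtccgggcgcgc
CCAAT was found in 5 of the 7 member promoters, and in 34% of all 33469 promoters of the table over the same 250 bases. It was not found in those of Cyp51 and Dhcr7, both of which were higher in both purified groups. GGGCGG was found in 6 of 7, all but Idi1, and in 30.5% of all promoters. The letters TCACNCCAC, written for a sterol regulatory element, were in 0 of 7 and in 0.974% of all promoters. A match is a description of the letters and not a binding site. Of the genes that were not higher in both purified groups, only Hmgcs1 and Insig1 have an entry. The letters therefore cannot show whether they separate the genes that were higher in both from those that were not.

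A difference below is that of the group means of log2(normalized value + 1), and a gene was counted as higher or lower where it was at least 1 in size. By that count 6 of 9 genes were higher in both purified groups than in GABAergic neurons with glia: Mvd, Idi1, the Fdps // Rusc1 row, Fdft1, Cyp51 and Dhcr7. Over all 7305 genes counted the share was 4.75%. Without the shared row it was 5 of 8 members. Hmgcs1, Sqle and Insig1 were not among them. The comparisons of OCM-treated and of purified cells use the same 6 GABAergic neurons with glia, so they are given side by side and not as support for each other.

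In OCM-treated cells against GABAergic neurons with glia, 7 of 9 genes were higher, where 20.3% of 6772 genes were, and 0 of 9 lower, where 44.4% were. The members' median difference was 3.04, and that of all genes was -0.72. In purified cells against the same neurons, 6 of 9 were higher, where 11% of 6302 genes were, and 3 of 9 lower, where 64.4% were. The median difference was 3.81 for the members and -2.13 for all genes. All 9 genes passed the filter, a value above 0 in at least 3 cells of the groups compared. Purified cells thus had lower values than GABAergic neurons with glia for most genes, and 6 members ran the other way.

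**Figure D1:**
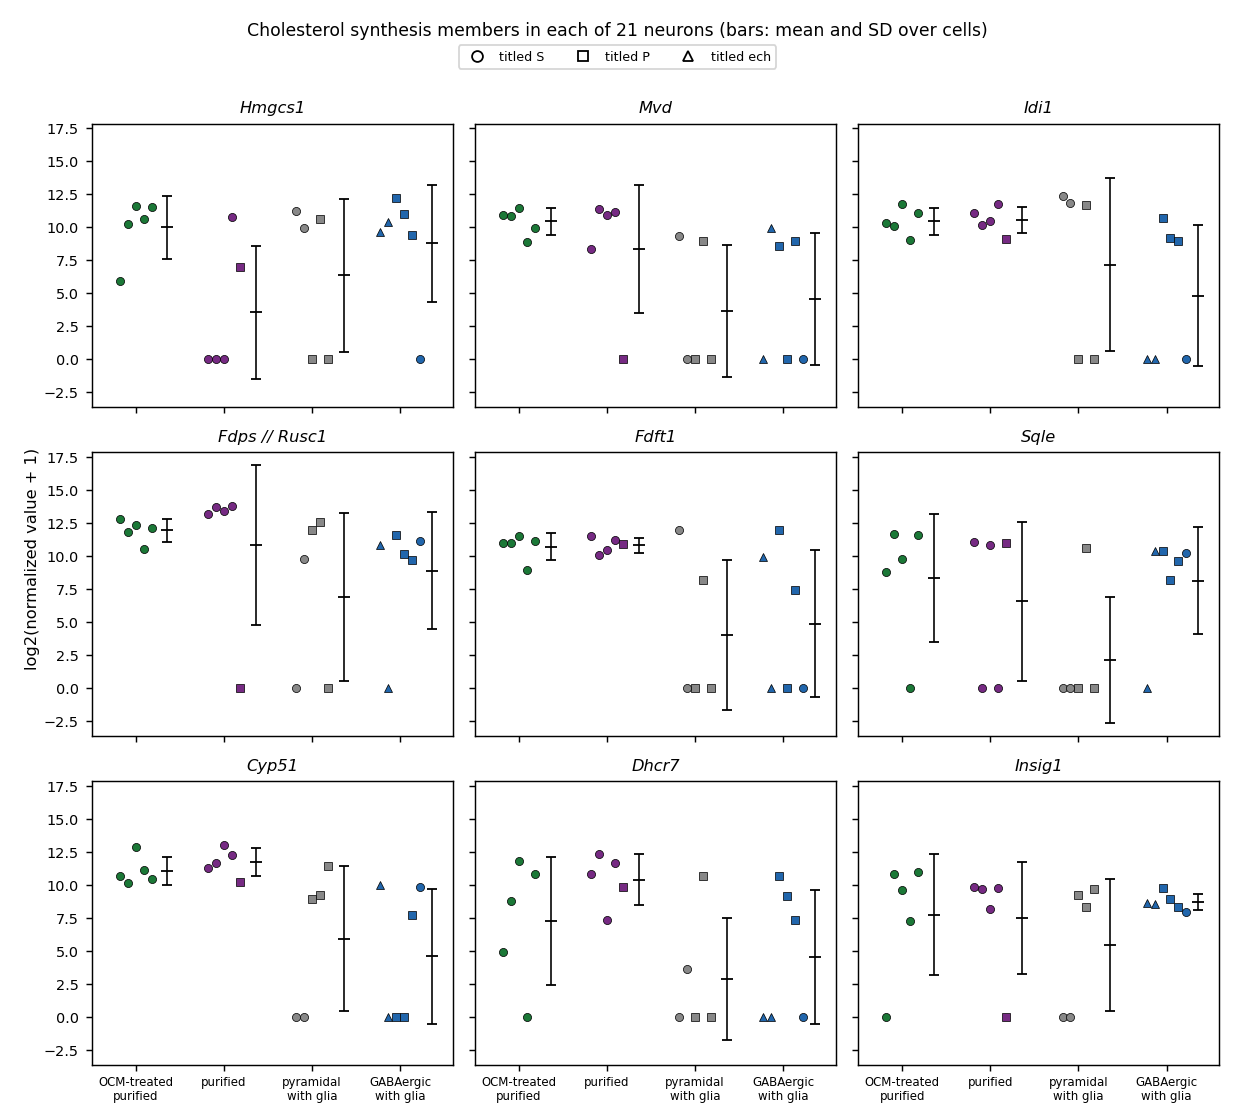
Level of each gene in each neuron, as log2(normalized value + 1), for OCM-treated purified, purified, pyramidal and GABAergic neurons with glia; each point is a cell, its shape gives the title letters, and bars give the mean and SD over cells. Every purified and OCM-treated cell lies above every GABAergic neuron with glia for Cyp51, and most of the spread in the other genes is between cells at 0 and cells with a value.

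At the entry to the pathway, Hmgcs1 encodes the synthase that joins acetyl-CoA and acetoacetyl-CoA to HMG-CoA (chr2:52427548-52445082 in rn6, row GSRG0015165). It had 59.3, 1232, 3226, 1546 and 2993 normalized units in OCM-treated cells and 0, 0, 0, 1761 and 127 in purified cells, against 783, 1353, 4849, 2047, 696 and 0 in GABAergic neurons with glia. It was detected in all 5 OCM-treated cells, 2 of 5 purified cells and 5 of 6 GABAergic neurons with glia, and the groups overlap. Its difference from GABAergic neurons with glia was 1.21 for OCM-treated and -5.23 for purified cells. The first of these turned to -0.55 without GABAergic cell 6, the one with glia at 0. Hmgcs1 was the only member to differ by more than 1 in opposite directions in these comparisons.

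Mvd encodes the decarboxylase that turns mevalonate diphosphate into isopentenyl diphosphate (chr19:55258911-55268934, row GSRG0015003). Its values were 2009, 1875, 2824, 485 and 1009.6 in OCM-treated cells and 320.1, 2677, 2009.5, 2351 and 0 in purified cells, against 0, 981, 376, 0, 487 and 0 in GABAergic neurons with glia. In the glial cultures 3 of 6 cells were at 0 and none exceeded 981, a level that 7 of the 10 OCM-treated and purified cells exceeded. The differences were 5.87 for OCM-treated and 3.81 for purified cells, and the means were 1640.4 ± 912 and 1472 ± 1226, against 307 ± 393 (SD, n = 5, 5 and 6 cells).

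Idi1 encodes the isomerase that turns isopentenyl diphosphate into dimethylallyl diphosphate (chr17:57976264-57984036, row GSRG0013426). It had 1274, 1118, 3453, 519 and 2218 units in OCM-treated cells and 2137, 1183, 1439, 3492 and 561 in purified cells, against 0, 0, 1712, 597, 509 and 0 in GABAergic neurons with glia. All 10 purified and OCM-treated cells had Idi1, and 3 of 6 GABAergic neurons with glia were at 0, although cell 3 of these lay above 6 of the 10. Differences were 5.64 and 5.71. In the pyramidal neurons Idi1 was either high, at 5259, 3680.2 and 3243 in cells 1, 2 and 4, or at 0.

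Farnesyl diphosphate synthase, encoded by Fdps, makes the isoprenoid at which the sterol route parts from protein prenylation, dolichol and ubiquinone. Its shared row with Rusc1 (chr2:188392851-188413219, row GSRG0016442) had 7403, 3606, 5402, 1516 and 4578 units in OCM-treated cells and 9485, 13709, 10763, 14455 and 0 in purified cells. GABAergic neurons with glia had 1835, 0, 3142, 1155, 826 and 2292. Purified cells 1 to 4 lay above every other cell of the 21, whereas purified cell 5, the one titled P, was at 0. Differences were 3.04 for OCM-treated and 1.92 for purified cells. The second was 4.63 without purified cell 5 and 0.14 without GABAergic cell 2 with glia, so this row counts as higher in both groups only with that cell.

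Fdft1 encodes squalene synthase, which joins farnesyl units in the first step that serves sterols alone (chr15:46339249-46367321, row GSRG0011702). It had 2068, 2034, 2966, 495 and 2236 units in OCM-treated cells and 2909, 1066, 1395, 2349.5 and 1927 in purified cells, against 989, 0, 4032, 0, 172 and 0 in GABAergic neurons with glia. All 10 purified and OCM-treated cells had it and 3 of 6 GABAergic neurons with glia did not, but the highest value of the 3 groups was that of GABAergic cell 3 with glia. Differences were 5.83 and 5.93 on the log scale, which the cells at 0 stretch, and the ratios of mean levels were 2.26 and 2.23.

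Sqle encodes squalene epoxidase, which adds the oxygen needed for ring closure and is a rate-limiting step (chr7:99609798-99624811, row GSRG0027851). Its values were 436, 3226, 876, 0 and 3099 in OCM-treated cells and 2129, 0, 1820.4, 0 and 2050.0 in purified cells, against 0, 1335, 1363, 300.2, 781 and 1212 in GABAergic neurons with glia. The groups overlap, and detection was no more frequent in purified cells than with glia. Its differences were 0.21 for OCM-treated and -1.57 for purified cells, and the second came to 0.0743 without purified cell 2, and likewise without purified cell 4.

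Cyp51 encodes lanosterol 14-alpha-demethylase, the enzyme that begins the trimming of lanosterol (chr4:27175243-27194014, row GSRG0021356). It had 1685, 1130.4, 7590.4, 2329 and 1429.9 units in OCM-treated cells and 2522, 3351, 8463, 5119 and 1206 in purified cells. In GABAergic neurons with glia it had 1011, 0, 0, 0, 212 and 938. Every one of the 10 purified and OCM-treated cells lay above all 6, and Cyp51 was the 1 gene of 7305 of which this held, or 0.0137%. Differences were 6.49 for OCM-treated and 7.12 for purified cells, and with any 1 cell left out they stayed between 5.57 and 8.20. The ratios of mean levels were 7.87 and 11.5. By mean level the order was purified cells (4132 ± 2806), OCM-treated cells (2833 ± 2696), pyramidal neurons (778 ± 1157) and GABAergic neurons with glia (360.2 ± 483; SD over cells). Purified and OCM-treated cells overlap, as do pyramidal neurons and GABAergic neurons with glia, and pyramidal cell 5, at 2786, lies within the range of the OCM-treated cells.

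Dhcr7 encodes 7-dehydrocholesterol reductase, which makes cholesterol in the last step of one branch (chr1:217018916-217034890, row GSRG0001929). It had 29.1, 436, 3697, 0 and 1813 units in OCM-treated cells and 1878, 5139, 159, 3263 and 947 in purified cells, against 0, 0, 1632, 592, 161 and 0 in GABAergic neurons with glia. Detection ran in 4 of 5 OCM-treated, 5 of 5 purified and 3 of 6 GABAergic cells with glia, with overlap of all 3 groups. Differences were 2.74 for OCM-treated and 5.88 for purified cells.

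Insig1 encodes the feedback regulator described above (chr4:342293-350515, row GSRG0021263). It had 0, 1819, 796, 157 and 2022 units in OCM-treated cells and 933, 819, 285, 888 and 0 in purified cells, against 408, 380.4, 894, 499.5, 323 and 252 in GABAergic neurons with glia. It was detected in all 6 GABAergic neurons with glia, and in 4 of 5 cells of each purified group. Its differences were -0.97 for OCM-treated and -1.22 for purified cells although its mean levels were 959 ± 930.1 and 585 ± 418, against 459.6 ± 228 (SD over cells). The sign thus rests on the cells at 0: without purified cell 5 the difference in purified cells was 0.65, and without OCM-treated cell 1 that in OCM-treated cells was 0.96.

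**Figure D2:**
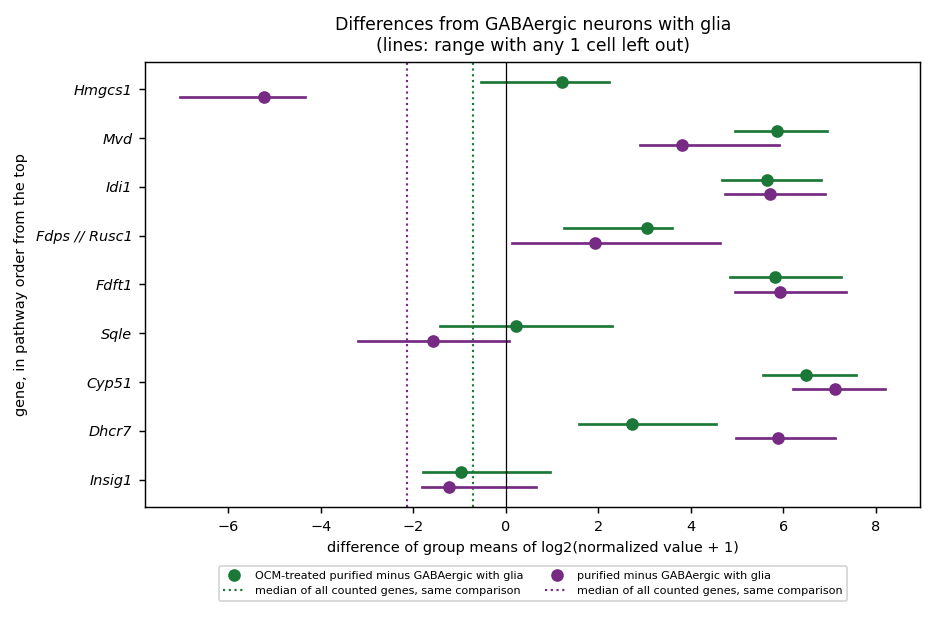
Difference of the group means of log2(normalized value + 1) from GABAergic neurons with glia, for OCM-treated purified and purified cells; genes run in pathway order from the top, points are the differences with all cells, lines span the values with any 1 cell left out, and dotted lines are the medians of all genes counted. Cyp51, Fdft1, Idi1, Mvd and Dhcr7 keep both lines right of 1, whereas the purified line of the Fdps // Rusc1 row falls to 0.14. For Hmgcs1 the purified line lies below 0 and the OCM-treated line crosses 0 (-0.55 to 2.23). Both lines of Sqle and of Insig1 cross 0.

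OCM-treated cells were also set against purified cells without OCM, which asks what the conditioned medium goes with in the absence of glia. Here 4 of 9 genes were higher, where 56.0% of 5143 genes were, and 1 of 9 lower, where 16.4% were. The members' median difference was 0.25, below that of all genes, 1.40. The higher ones were Hmgcs1 at 6.44, Mvd at 2.07, Sqle at 1.78 and the Fdps // Rusc1 row at 1.13, and the lower one was Dhcr7 at -3.15. Idi1, Fdft1, Cyp51 and Insig1 lay between, at -0.07, -0.10, -0.64 and 0.25. Purified cell 5 sets the values of Mvd and of the Fdps // Rusc1 row, which were -0.0289 and -1.58 without it. Of the higher genes, Hmgcs1 (5.55 to 8.25) and Sqle (0.14 to 3.87) kept their sign with any 1 cell left out. The 59.3 units of Hmgcs1 in OCM-treated cell 1 lie below 2 purified cells.

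Pyramidal neurons were compared with GABAergic neurons within glial cultures. Of 9 genes 2 were higher, where 13.3% of 6571 genes were, and 5 of 9 lower, where 64.2% were. The medians were -1.67 for the members and -2.05 for all genes, so the members lay close to the rest. Idi1 was higher, at 2.35, and so was Cyp51, at 1.33, but Cyp51 came to -0.0475 without pyramidal cell 5. Lower were Sqle at -6.02, Insig1 at -3.26, Hmgcs1 at -2.42, the Fdps // Rusc1 row at -2.03 and Dhcr7 at -1.67. Pyramidal cell 4, which had all 9 genes, also had oligodendrocyte lineage transcripts, and the other 4 pyramidal cells had 2 to 4 of the 9. It is the 1 pyramidal cell with Sqle, at 1574. What those transcripts contribute to its values was not tested. Without pyramidal cells 3 and 4 the members' median was -1.73, Sqle was at 0 in all 3 remaining cells, and the difference was 3.24 for Idi1, -0.78 for Cyp51, -5.50 for Insig1, -1.73 for Hmgcs1, -5.64 for the Fdps // Rusc1 row and -3.31 for Dhcr7.

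Cells differed in how much of the pathway they showed. OCM-treated cells had 7 to 9 of the 9 genes above 0 and purified cells 6 to 8, against 4 to 9 in GABAergic neurons with glia, and thinning to equal depth changed none of these counts. The mean of log2(normalized value + 1) over the 9 genes was 8.39, 10.61, 11.44, 7.39 and 11.09 in OCM-treated cells and 9.69, 8.79, 9.41, 10.28 and 6.46 in purified cells. In GABAergic neurons with glia it was 5.45, 4.37, 9.56, 6.31, 8.61 and 4.36. GABAergic cells 3 and 5 with glia lay within the range of the purified cells, and purified cell 5 lay below both. Over the 16 GABAergic cells this mean had a Pearson r of 0.0048 with the log2 number of genes detected at equal depth, and over all 21 cells 0.37, as a description of cells that differ in group and library. These pooled values do not describe the cells within a group. With glia, GABAergic cells 3 and 5 had the most genes (5857 and 8216) and the highest means. Cells 2 and 6 had the fewest (3613 and 4083) and the lowest means. By contrast, OCM-treated cell 3 (3756 genes) and purified cell 4 (2531) had the fewest genes and the highest mean of their groups.

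**Figure D3:**
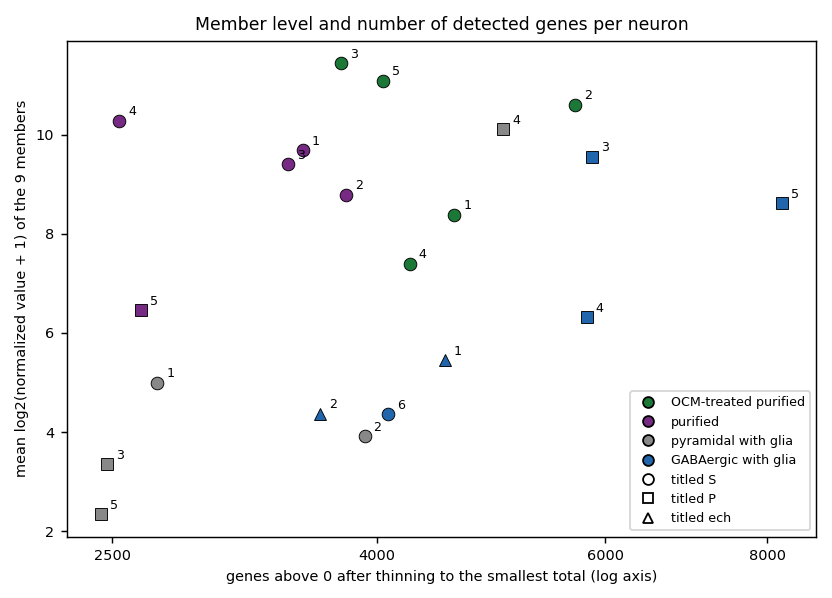
Mean log2(normalized value + 1) of the 9 genes in each neuron against the number of genes detected after thinning to the smallest total (log axis); color gives the group, shape the title letters and the number the cell within its group. Purified cells have few detected genes, 2531 to 3787, and mostly high means, while GABAergic neurons with glia have 3613 to 8216 genes and means of 4.36 to 9.56.

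Other transcripts also moved with the culture. The summed level of 4 pan-neuronal markers was 15148 to 26773 units in OCM-treated and 7197 to 16533 in purified cells. GABAergic neurons with glia had 28597 to 45915, with no overlap with the purified and OCM-treated cells. Snap25 made up most of these sums, with means of 18422, 9797 and 32974 in the same order. The other markers overlapped: Syt1 ran from 77.6 to 1290, 285 to 1436 and 403 to 2593, and Map2 and Rbfox3 were at 0 in some cells of each group. Over all genes, 44.4% were lower in OCM-treated and 64.4% in purified cells than in GABAergic neurons with glia. How many genes lay lower without overlap was not counted. Sums of astrocyte markers overlapped: the summed level of 8 astrocyte markers in the table was 0 to 1226 in OCM-treated and 0 to 1538 in purified cells, against 169 to 3114 in GABAergic neurons with glia. Slc1a2 was at 0 in all of these cells and Gfap in the purified and OCM-treated cells. Aldoc had the highest mean of the 8 in each group, at 405 in OCM-treated cells, 310 in purified cells and 797 with glia. Slc1a3 did not follow it, with means of 23.3, 208 and 153. Apoe, carrier of astrocyte cholesterol, was read in GABAergic cells 3, 5 and 6 with glia, at 2011, 713 and 110 units. It was also read in 1 OCM-treated cell at 242 units and in 2 purified cells at no more than 82.2. Of the GABAergic neurons with glia, cells 3 and 5 had the highest means of the 9 genes (9.56 and 8.61) and cell 6 the lowest (4.36). The markers' part in the individual values was not tested.

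The 9 genes varied together only loosely from cell to cell. Over 21 cells the 36 pairs had Pearson correlations of log2 values between -0.45 and 0.71 with a median of 0.26, and 30 were above 0. Idi1 and Dhcr7 (0.71), Mvd and Fdft1 (0.66) and Idi1 and Fdft1 (0.64) went together most, and Hmgcs1 and Cyp51 (-0.45) least. With the mean of the other 8 genes, Dhcr7 had 0.75, Fdft1 0.66, Mvd 0.65 and Idi1 0.60, whereas Cyp51 had 0.21, Insig1 0.20 and Hmgcs1 0.12. These values describe cells that share groups, and detection at 0 shapes them.

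Of the other enzymes of the pathway, 12 of 13 listed are in the table. In OCM-treated cells against GABAergic neurons with glia 9 were higher and 0 lower, where 20.3% and 44.4% of all genes were, and the median difference was 2.42. In purified cells 5 were higher and 2 lower, where 11% and 64.4% of all genes were, and the median was 0.28, or 0.97 with groups wholly at 0 set to 3 reads. Higher in both, where 4.75% of all genes were, were 4: Acat2, which makes acetoacetyl-CoA (3.34 in OCM-treated and 3.47 in purified cells), and the post-lanosterol enzymes Tm7sf2 (4.27 and 4.05), Msmo1 (2.02 and 3.15) and Nsdhl (3.03 and 2.20). Among GABAergic cells, Msmo1 and Nsdhl were at 0 only in cell 2 with glia, which lowers their glial means. In the other GABAergic neurons with glia Msmo1 had 1267 to 4408 units, within its range in OCM-treated cells (536 to 10624). Nsdhl had 533 to 1858 there, and purified cell 5 lay below that. Differences without cell 2 were not computed for these genes, so their place among the 4 may rest on that cell. The post-lanosterol enzymes Sc5d (-0.02 and -2.03), Hsd17b7 (2.33 and -0.86) and Ebp (1.09 and -0.54) had negative differences in purified cells.

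**Figure D4:**
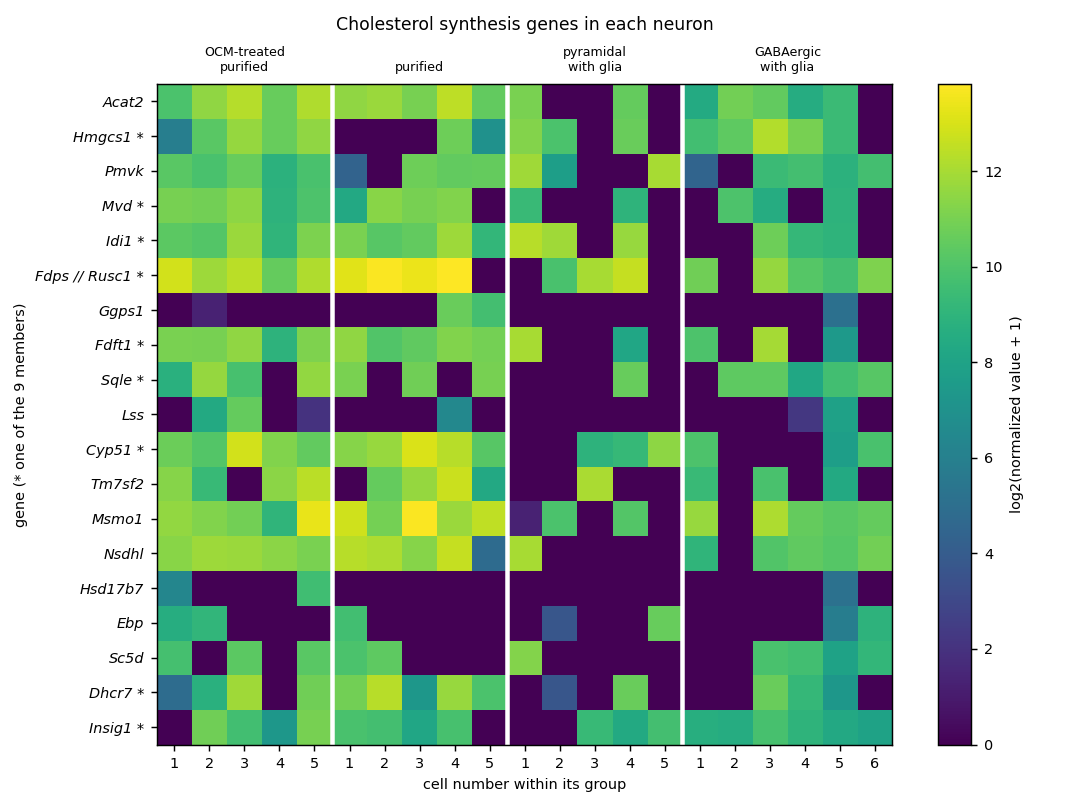
log2(normalized value + 1) of the 9 genes (starred) and 10 further enzymes of the pathway in each neuron, in pathway order from the top with Insig1 last; columns are cells, grouped as OCM-treated purified, purified, pyramidal with glia and GABAergic with glia. Purified and OCM-treated columns are filled for Acat2, Idi1, Fdft1, Cyp51, Msmo1 and Nsdhl, each of which has a value in all 10 cells. In GABAergic neurons with glia, Acat2, Msmo1 and Nsdhl each have a value in 5 of 6 cells, and Idi1, Fdft1 and Cyp51 in 3 of 6.

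Of 6 listed genes of the SREBP machinery, 0 were higher in either purified group than in GABAergic neurons with glia and 3 were lower in each. Over all genes 20.3% were higher and 44.4% lower in OCM-treated cells, and 11% and 64.4% in purified cells, so the 3 of 6 lower are near that background. Their median difference was -0.71 in OCM-treated and -0.89 in purified cells, and 0.45 in purified cells with groups wholly at 0 set to 3 reads. Srebf2, which encodes SREBP-2, differed by 0.01 in OCM-treated and 0.92 in purified cells. Insig2, the paralog of Insig1, was at 0 in all 5 purified cells, had 247, 465, 441, 0 and 614 units in OCM-treated cells, and had 356, 0, 338, 444, 329.6 and 1011 in GABAergic neurons with glia. Insig1 was present in 4 of 5 purified cells, so the paralogs differed in detection there.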

How the data were processed

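Single neurons were aspirated after patch-clamp recording, and their RNA was amplified with SMART-Seq v4 and sequenced as read pairs after Nextera XT preparation, per the labels' protocols. Per the submitters' processing notes, the tools were FastQC, STAR 2.4.0, Picard, SAMtools and DESeq2, with genome build rn6. How reads were counted, with which annotation and strand setting, is not given here. The table the authors deposited holds 1 signal per gene and cell, named DESeq2-normalized. In each cell 100% of values were whole multiples of 1 step within 0.05, which gave back reads and depth. No count test was run on them, since cells of 1 sample are not replicates. Of 34976 rows, 18376 lack a symbol; for 16245 symbols the row with the highest mean was kept, and 0 value columns lacked a sample.

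Differences are of group means of log2(value + 1), over genes above 0 in at least 3 cells of the groups compared, and 1 or more counts as higher or lower. They largely follow detection. The named genes are the 9 members, members of gene lists (further cholesterol enzymes, SREBP machinery, other SREBP targets, cholesterol uptake and transport) and the 8 genes most correlated with the members. Members and lists were chosen with earlier results of these data known. Values of some listed genes are not reported here. The scripts were tested on simulated data. Promoters are RefSeq, build GRCr8, used for sequence only. Alternatives were other pseudocounts (10 and 0.1), other scalings, the ratio of means, medians over cells, thinned reads, cells titled S, and each cell left out. Python 3.11.15, numpy 2.4.6, pandas 2.3.3 and matplotlib 3.10.9 were used.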

Additional observations from a re-analysis of the deposited data

Results flagged for a closer look

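Of 36 combinations of gene and group, 10 held a cell whose log2 level stood apart from the other cells of its group by more than Dixon's critical value; chance flags about 1 in 20 groups, and cells at 0 among cells with a value set off most of these. Purified cell 5, the only purified cell titled P, accounts for 3 of them, with 0 for Mvd, 0 for the Fdps // Rusc1 row and 0 for Insig1. OCM-treated cell 4 accounts for 2, with 495 normalized units of Fdft1 and 0 of Sqle. OCM-treated cell 1 had 59.3 units of Hmgcs1. Pyramidal cell 4 had 1574 units of Sqle, where the other pyramidal neurons had 0. Among GABAergic neurons with glia, cell 6 had 0 for Hmgcs1, cell 2 had 0 for the Fdps // Rusc1 row and cell 1 had 0 for Sqle.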

How the results depend on the processing

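The number of genes higher in both purified groups was 6 and ranged from 5 to 7 over the alternatives. Mvd, Idi1, Fdft1, Cyp51 and Dhcr7 were among them in all 25 settings compared. It was 5 without GABAergic cell 2 with glia and 5 without the Fdps // Rusc1 row, and 7 with medians over cells, which add Insig1. With cells titled S it was 6, with Hmgcs1 in place of the Fdps // Rusc1 row, but that leaves 1 GABAergic neuron with glia. The members' median difference for purified cells against GABAergic neurons with glia was 1.91 with ratios of means, 5.995 with medians over cells, and 2.89 to 5.90 with any 1 cell left out. For OCM-treated cells it was 5.11 with medians over cells and 7.27 with cells titled S. For pyramidal neurons it was 1.84 with cells titled S.

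Signs turned for some genes whose difference was at least 1 in size. With ratios of means, Sqle (0.53) and Insig1 (0.35) turned for purified cells against glia, and the Fdps // Rusc1 row turned for OCM-treated against purified cells (-1.10) and for pyramidal neurons (0.53). With medians over cells, Sqle (0.90) and Insig1 (1.05) turned for purified cells, and Mvd (-0.10), the Fdps // Rusc1 row (-1.23) and Sqle (-1.06) for OCM-treated against purified cells. With cells titled S, Hmgcs1 (2.70) and Insig1 (1.39) turned for purified cells, Mvd (-0.0289) and the Fdps // Rusc1 row (-1.58) for OCM-treated against purified cells, and Hmgcs1 (10.57), Cyp51 (-9.87) and Dhcr7 (1.84) for pyramidal neurons. Among alternatives added after seeing the data, Cyp51 in pyramidal neurons was -0.78 without pyramidal cells 3 and 4, and without the 3 GABAergic neurons with glia that had Apoe reads Hmgcs1 in OCM-treated cells was -0.34 and Sqle in purified cells 0.37. Of smaller differences, that of Insig1 in OCM-treated cells against glia turned to 1.06 with ratios of means and 1.01 with medians over cells. Under some settings small differences of Mvd, Idi1, Fdft1, Sqle and Cyp51, and the members' median between OCM-treated and purified cells, turned as well.

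With any 1 cell left out, ranges that cross 0, among differences of at least 1, were -3.20 to 0.0743 for Sqle and -1.82 to 0.65 for Insig1 in purified cells against glia. They were -0.55 to 2.23 for Hmgcs1 in OCM-treated cells against glia, -0.0289 to 2.82 for Mvd and -1.58 to 1.87 for the Fdps // Rusc1 row between OCM-treated and purified cells, and -0.0475 to 2.81 for Cyp51 in pyramidal neurons. Among smaller differences, ranges also crossed 0 for Sqle (-1.42 to 2.30) and Insig1 (-1.78 to 0.96) in OCM-treated cells against glia, for Insig1 (-1.63 to 2.19), Idi1 (-0.42 to 0.29), Fdft1 (-0.30 to 0.34) and the members' median (-0.42 to 0.90) between OCM-treated and purified cells, and for Mvd (-2.32 to 0.17) and Fdft1 (-2.85 to 0.56) in pyramidal neurons. The causes were not tested. No paired analysis was possible because the labels give no numbers that tie cells across groups. Thinning to equal depth removed no detection of the 9 genes. A value of 0 shows only that no read was counted in the aspirated contents, and amplified reads are not independent molecules.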

Other observations

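Of 13 listed genes of uptake, transport, export and turnover in the table, 5 were lower and 2 higher in OCM-treated cells than in GABAergic neurons with glia, where 44.4% and 20.3% of all genes were. In purified cells 9 were lower and 2 higher, where 64.4% and 11% of all genes were. Both counts of lower genes are near those shares. Their median differences were -0.65 in OCM-treated and -1.85 in purified cells, or 0.28 and -0.86 with groups wholly at 0 set to 3 reads. Vldlr, a receptor for lipoproteins that carry Apoe, had 0, 1379, 1498, 0 and 375 normalized units in OCM-treated cells and 0 in all 5 purified cells, against 4271, 2114, 0, 2103, 614 and 4422 in GABAergic neurons with glia. Npc2, which takes part in the export of cholesterol from lysosomes, was higher in both purified groups, by 1.53 in OCM-treated and 2.68 in purified cells. So was the lipoprotein receptor Scarb1, by 2.06 and 2.81, with values in 2 cells of each purified group.

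Of 11 other known SREBP targets in the table, 9 had a read in each of the comparisons with GABAergic neurons with glia. Of these 2 were higher and 2 lower in OCM-treated cells, where 20.3% and 44.4% of all genes were, and the median difference was 0.36. In purified cells 2 were higher and 3 lower, where 11% and 64.4% were, and the median was 0.66. Idh1, which makes NADPH in the cytosol, was the 1 higher in both groups, where 4.75% of all genes were, by 6.66 and 6.92. It had 1301, 1610.1, 849, 0 and 934 units in OCM-treated cells and 0, 3899, 441, 1441 and 1655 in purified cells, against 437 in cell 4 and 0 in the other 5 GABAergic neurons with glia.

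Among 2960 genes above 0 in at least 11 of 21 cells, the 8 most correlated with the mean of the 9 were Acat2 (Pearson r 0.78), Npc2 (0.76), Alg2 (0.76), Pcdh11x (0.74), Rdh11 (0.73), RGD1303003 (0.71), Rgs10 (0.71) and Msmo1 (0.71). Over the 16 GABAergic cells these ran from 0.35 for RGD1303003 to 0.76 for Pcdh11x. Acat2 and Msmo1 are themselves enzymes of the pathway.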
